A study of Zea mays with 2 samples.

Results

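AHA3, STP3 and SUT1 are maize genes of proton-coupled sugar transport, and they make up 3 of the 46430 features counted in the deposited matrices. The members were chosen by gene identifier: AHA3 is Zm00001d019062, a plasma membrane proton pump, STP3 is Zm00001d027268, a hexose transporter, and SUT1 is Zm00001d027854, a sucrose transporter. All 13444 deposited cell barcodes were used, without the study's cell filter unless stated. The data are unique molecular identifier (UMI) counts from 2 droplet-based single-cell RNA libraries of untreated B73 inbred maize, each from 1 pool of leaf protoplasts. Each pool came from 6 seedlings at the V2 stage and was cut from the distal 6 cm of leaf 2, and the plants of the second pool were grown at another time. Protoplasts keep no record of where in the leaf a cell lay, and enzymatic release of maize leaves frees far more mesophyll than bundle sheath cells.

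Plasma membrane proton pumps such as AHA3 spend ATP to move protons out of the cell, and the resulting gradient drives symporters that carry a sugar inwards together with a proton. STP proteins are hexose symporters of this kind, and SUT1 is the sucrose symporter known for loading the phloem from companion cells. In maize, SWEET13 proteins are the passive sucrose exporters on the releasing side of the same route. In a C4 leaf, mesophyll cells fix carbon first with PEP carboxylase (PEP1) and carbonic anhydrase (CAH1), and the bundle sheath cells around the veins release it again with NADP-malic enzyme (ME1) for Rubisco (small subunit RBCS1).

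Each barcode was put in 1 of 3 classes. A barcode was called bundle sheath with at least 10 UMIs of ME1 and RBCS1 together and more of these than of PEP1 and CAH1 together, mesophyll in the reverse case, and other when neither held. Library 1 held 248 bundle sheath, 6318 mesophyll and 774 other barcodes, and library 2 held 76, 5221 and 807. Median depth in these classes was 2201, 13405 and 694 UMIs per barcode in library 1, and 3479, 6833 and 1024 in library 2. The summed UMIs of library 1 came to 2013874 in bundle sheath, 85185950 in mesophyll and 882072 in other barcodes, and those of library 2 to 539924, 40212800 and 1171843. Markers that the rule did not use followed the names, but not equally. RBCS2, a second Rubisco small subunit gene, stood at 13846 and 21397 UMIs per 1000000 UMIs of the class (CPM) in bundle sheath barcodes of library 1 and 2, and at 49.7 and 31.5 CPM in mesophyll barcodes. The mesophyll marker MDH6 was at 110 and 40.7 CPM in bundle sheath and 2145 and 2327 CPM in mesophyll barcodes. PDK1, also a mesophyll marker, was at 1698 and 2771 CPM in bundle sheath and 5486 and 9036 CPM in mesophyll barcodes. At least 10 UMIs of both marker pairs were found in 15 bundle sheath barcodes of library 1 and in 1 of library 2, and 11 barcode sequences occurred in both libraries. Other barcodes were shallow, and 762 of 774 and 796 of 807 had 1800 or fewer detected genes.

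AHA3 was highest in bundle sheath barcodes of both libraries. In library 1 the gene had 442 UMIs in bundle sheath, 180 in mesophyll and 18 in other barcodes, and in library 2 it had 101, 175 and 13. Mesophyll barcodes were so much more numerous and deeper that these sums are best read relative to all UMIs of the class. On that scale AHA3 stood at 219 CPM (95% exact Poisson interval 199 to 241) and 187 CPM (152 to 227) in bundle sheath barcodes of library 1 and 2. It was lower in the bundle sheath barcodes that pass the study's filter, at 183 and 141 CPM, than in those left out, at 317 and 313 CPM. In mesophyll barcodes AHA3 was at 2.11 CPM (1.82 to 2.45) and 4.35 CPM (3.73 to 5.05), and at 1.65 and 4.22 CPM in those that pass the filter. Other barcodes lay between, at 20.4 CPM (12.1 to 32.3) and 11.1 CPM (5.91 to 19.0). The order bundle sheath, other, mesophyll was the same in both libraries, and no intervals of neighbouring classes overlapped within a library. These intervals, like those on shares of barcodes below, cover counting error only, and the spread between pools is seen only as library 1 beside library 2.

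STP3, with 100 UMIs in library 1 and 43 in library 2, had the same highest class. Bundle sheath barcodes held 42 STP3 UMIs in library 1 and 18 in library 2, or 20.9 CPM (15.0 to 28.2) and 33.3 CPM (19.8 to 52.7). Mesophyll barcodes held 56 and 24 UMIs, or 0.657 CPM (0.497 to 0.854) and 0.597 CPM (0.382 to 0.888). Other barcodes held 2 UMIs in library 1 and 1 in library 2, at 2.27 CPM (0.275 to 8.19) and 0.853 CPM (0.0216 to 4.75). The intervals of other and mesophyll barcodes overlapped in both libraries, so no order can be read between them.

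SUT1 had its highest level in other barcodes, which in library 1 rested on 1 barcode, and its mesophyll level differed between the libraries. Other barcodes held 25 SUT1 UMIs in library 1 and 27 in library 2, or 28.3 CPM (18.3 to 41.8) and 23.0 CPM (15.2 to 33.5). In library 1 a single barcode held 23 of the 25, and without it other barcodes stood at 2.39 CPM, below the bundle sheath. Bundle sheath barcodes held 17 UMIs in library 1, or 8.44 CPM (4.92 to 13.5), and 0 in library 2. With 539924 bundle sheath UMIs in library 2, a count of 0 allows up to 3 counts or 5.56 CPM. The bundle sheath level of library 1 lay above that limit, but its interval reached below it. Without the heaviest barcode, which held 6 of the 17 UMIs, the library 1 level was 5.57 CPM, about at the limit. The exact Poisson interval of library 2 reached 6.83 CPM and overlapped that of library 1 with all barcodes kept. No difference between the libraries can thus be read in the bundle sheath. Another barcode with 3 of the 17 held 263 UMIs of ME1 and RBCS1 and 214 of PEP1 and CAH1. Mesophyll barcodes held 57 SUT1 UMIs in library 1 and 2 in library 2, or 0.669 CPM (0.507 to 0.867) and 0.0497 CPM (0.00602 to 0.180). The mesophyll intervals of the libraries did not overlap, but that difference was not tested, since each library gives a single value.

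**Figure D1:**
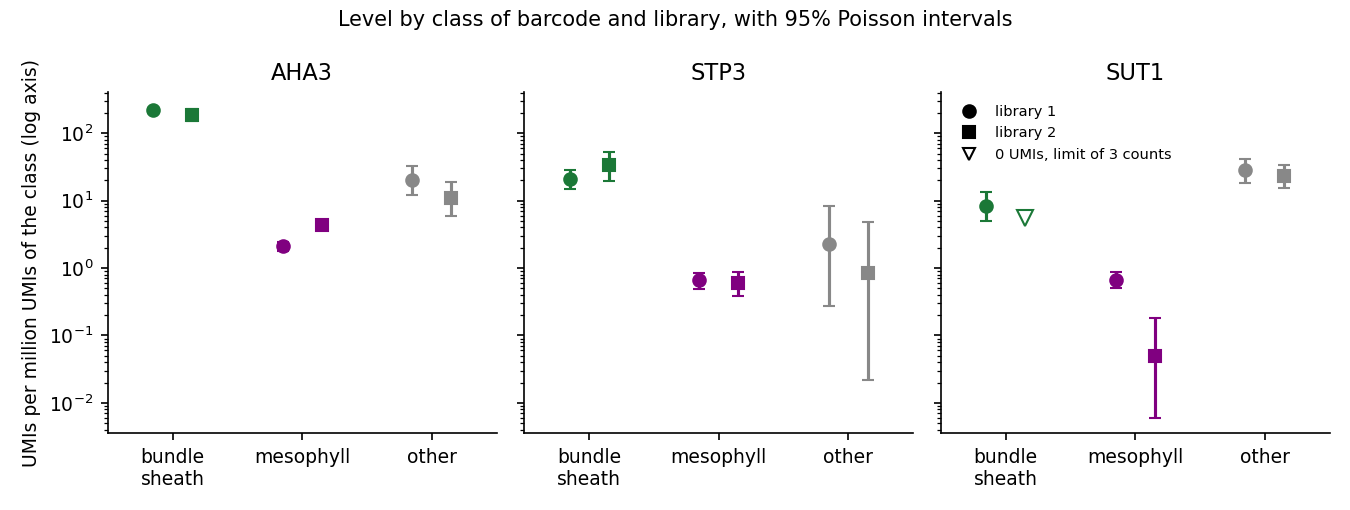
Level of AHA3, STP3 and SUT1 in CPM of the class on a log axis, for bundle sheath, mesophyll and other barcodes, with circles for library 1, squares for library 2 and bars for 95% exact Poisson intervals. AHA3 and STP3 are highest in bundle sheath barcodes (219 and 187 CPM for AHA3, 20.9 and 33.3 CPM for STP3), SUT1 in other barcodes (28.3 and 23.0 CPM, or 2.39 CPM in library 1 without 1 barcode), and the open triangle marks the 5.56 CPM that 0 SUT1 UMIs allow in bundle sheath barcodes of library 2.

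The classes were compared on UMI sums per library and class, since barcodes of 1 library are not replicates. Of 11249 genes tested with edgeR's quasi-likelihood test, 14.2% were higher in bundle sheath than in mesophyll sums at an adjusted p of 0.05 (1598 genes, with 1774 or 15.8% lower), and the median log2 fold change over all of them was -0.077. AHA3 was higher in bundle sheath sums by 6.12 ± 0.47 on the log2 scale (SE, adjusted p 7.74e-10), a 69.3-fold difference. Within library 1 the ratio of CPM was 104 (95% exact interval 87.1 to 124) and within library 2 it was 43.0 (33.3 to 55.2). STP3 was higher by 5.41 ± 0.47 (adjusted p 7.13e-09), with ratios of 31.7 (20.7 to 48.2) in library 1 and 55.9 (28.6 to 107) in library 2. RNA quality moved with the class, with a median mitochondrial share of 0.966% and 0.739% in bundle sheath and 0.178% and 0.187% in mesophyll barcodes of library 1 and 2, and 147 of 248 and 35 of 76 bundle sheath barcodes were at or above the study's limit of 0.75%. Among barcodes passing the study's filter the differences were 6.07 for AHA3 (adjusted p 8.67e-07) and 5.56 for STP3 (adjusted p 4.83e-06). Both genes had the same direction in each library, and AHA3 ranked 153 and STP3 178 by fold change among the genes tested. The study had listed both for a subcluster of its bundle sheath cells in these data. Their higher level in bundle sheath sums is thus no independent evidence.

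SUT1 also passed the threshold for higher bundle sheath sums, by 3.87 ± 0.74 (adjusted p 0.000316), but that call rests on library 1. There the ratio was 12.6 (6.88 to 22.0), from 17 bundle sheath and 57 mesophyll UMIs. In library 2, with 0 against 2 UMIs, both classes were at or under the limit of 3 counts and no ratio is given. The fitted log2 ratio of library 2 alone was -0.66 and is set by the prior count.

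Against mesophyll, 21.1% of the same genes were higher in other barcodes (2376 genes, with 2180 or 19.4% lower, median log2 fold change -0.087). SUT1 was higher in other barcodes by 6.17 ± 0.59 (adjusted p 2.05e-07). The ratio of CPM was 42.4 (25.4 to 68.9) in library 1 and 463 (116 to 4020) in library 2, the latter resting on 2 mesophyll UMIs. Without the heaviest SUT1 barcode of each library the fitted difference was 4.92 (adjusted p 0.000625). Other barcodes of library 1 then held 2 SUT1 UMIs, under the limit of 3 counts, so that value rests on library 2. Among barcodes that pass the study's filter, SUT1 failed the filter on low counts and was not tested. AHA3 was higher in other barcodes by 2.05 ± 0.49 (adjusted p 0.00263), with ratios of 9.66 (5.60 to 15.7) and 2.55 (1.33 to 4.47). That call was lost without the term for library (2.01, adjusted p 0.0563) and among barcodes that pass the study's filter (0.17, adjusted p 0.958). STP3 did not pass, at 0.95 ± 1.01 (adjusted p 0.465).

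The share of barcodes with at least 1 AHA3 UMI was also highest in the bundle sheath. In library 1, 114 of 248 bundle sheath barcodes held AHA3, or 46.0% (95% exact binomial interval 39.6 to 52.4), and in library 2 it was 38 of 76, or 50% (38.3 to 61.7). In mesophyll barcodes, which were deeper, the shares were 2.56% (2.19 to 2.98) and 3.12% (2.67 to 3.63), and in the shallow other barcodes 1.94% (1.09 to 3.18) and 1.36% (0.682 to 2.43). After every barcode was thinned to 1000 UMIs, which left out 86 and 10 bundle sheath and 733 and 171 mesophyll barcodes, the expected shares were 20.5% and 18.4% in bundle sheath and 0.393% and 0.548% in mesophyll barcodes. Free RNA in droplets adds UMIs to cells that do not make a transcript, and the mesophyll shares are given as the background beside which those of the bundle sheath stand.

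For comparison, genes known for the bundle sheath left UMIs in mesophyll barcodes at a level that was a small percentage of their bundle sheath level. This was 0.359% (0.347 to 0.371) and 0.147% (0.139 to 0.156) for RBCS2 in library 1 and 2. It was 0.652% (0.547 to 0.773) and 1.28% (1.03 to 1.59) for GLN3, a glutamine synthetase of the bundle sheath. For AHA3 it was 0.963% (0.805 to 1.15) and 2.33% (1.81 to 3.00), and for STP3 3.15% (2.08 to 4.82) and 1.79% (0.932 to 3.50). The AHA3 percentage thus lay above that of RBCS2 and of GLN3 in both libraries by intervals that did not overlap, while the STP3 interval overlapped that of GLN3 in library 2. What part free RNA has in the mesophyll UMIs of either gene was not tested.

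The AHA3 level in mesophyll barcodes also moved with depth. In library 1 it was 14.4 CPM in the 733 mesophyll barcodes under 1000 UMIs, 11.8 CPM from 1000 to 3000 UMIs, 3.60 CPM from 3000 to 10000, 2.02 CPM from 10000 to 20000 and 1.50 CPM above. The shallowest barcodes thus had the highest level there, on 8 AHA3 UMIs. In library 2 it was 10.3 CPM from 1000 to 3000 UMIs and 4.44, 3.69 and 5.14 CPM in the deeper groups, and 0 of 129727 UMIs in the 171 barcodes under 1000. Bundle sheath barcodes showed 482, 400, 211, 188 and 202 CPM over the same groups of depth in library 1 and 792, 245, 253, 126 and 176 CPM in library 2. In no group of depth with AHA3 in both classes did mesophyll come near the bundle sheath level.

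STP3 and SUT1 were found in few barcodes. STP3 was held by 24 bundle sheath barcodes of library 1, or 9.68% (6.30 to 14.1), and by 10 of library 2, or 13.2% (6.49 to 22.9), against 0.855% (0.643 to 1.11) and 0.441% (0.279 to 0.660) of mesophyll barcodes. SUT1 was held by 9 bundle sheath barcodes of library 1, or 3.63% (1.67 to 6.78), and 0 of 76 in library 2, which allows a share of up to 3.95%. Its share of mesophyll barcodes was 0.506% (0.347 to 0.714) in library 1 and 0.0383% (0.00464 to 0.138) in library 2. Among other barcodes 3 of 774 in library 1 and 8 of 807 in library 2 held SUT1, or 0.388% (0.0800 to 1.13) and 0.991% (0.429 to 1.94). The interval of other barcodes lay below that of bundle sheath barcodes in library 1 and above that of mesophyll barcodes in library 2. In library 1 it overlapped the mesophyll interval. In library 2 the 0 of 76 allows more than the share of other barcodes, so no order with the bundle sheath can be read there. Other barcodes were shallow, and among barcodes thinned to 3000 UMIs, which left 33 and 63 of them, their expected SUT1 share was 2.41% and 5.11%, against 1.24% and 0 in bundle sheath and 0.145% and 0.0126% in mesophyll barcodes. The 2.41% of library 1 came from 1 barcode, which held 23 SUT1 UMIs. The 0 of library 2 is from 43 bundle sheath barcodes, too few to place their share below that of other barcodes.

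**Figure D2:**
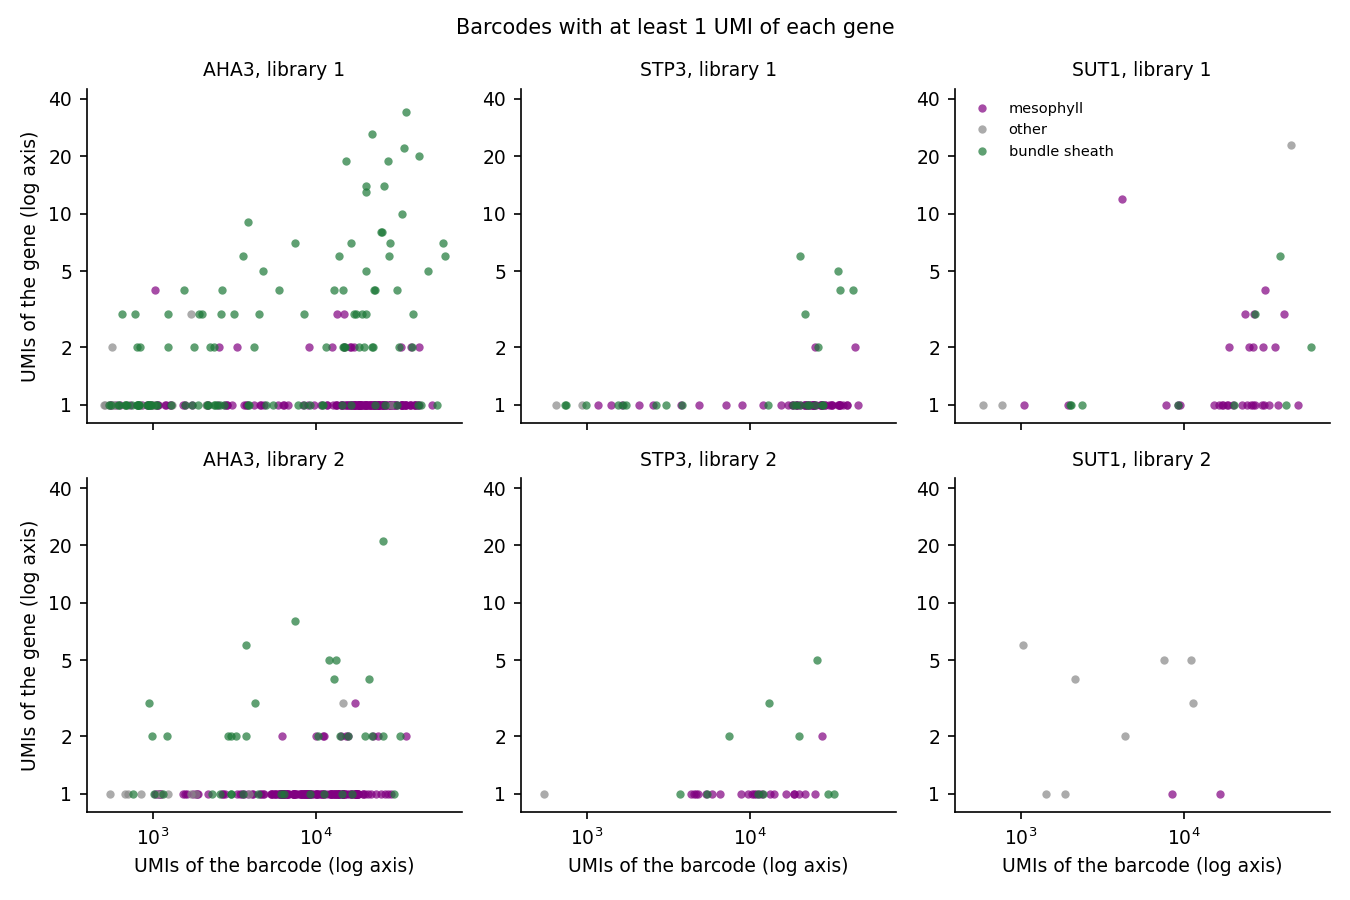
Every barcode with at least 1 UMI of AHA3, STP3 or SUT1, with the UMIs of the barcode on the x axis and the UMIs of the gene on the y axis, both on log axes, library 1 above and library 2 below, coloured by class. Barcodes with many AHA3 UMIs are bundle sheath barcodes (up to 34 UMIs in library 1 and 21 in library 2), most holders of STP3 have 1 UMI, and SUT1 reaches 23 UMIs in 1 other barcode of library 1 and 6 in other barcodes of library 2.

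Counts above a few UMIs per barcode separated the classes further. Of the 50 barcodes of library 1 with 3 or more AHA3 UMIs, 46 were bundle sheath, 3 mesophyll and 1 other, and of the 11 in library 2, 9 were bundle sheath, 1 mesophyll and 1 other. Mesophyll barcodes reached at most 4 AHA3 UMIs in library 1 and 3 in library 2, and 148 of the 162 holders in library 1 and 152 of the 163 in library 2 had 1 UMI. All 5 barcodes of library 1 and both barcodes of library 2 with 3 or more STP3 UMIs were bundle sheath barcodes, with at most 6 and 5 UMIs. Of the 8 barcodes of library 1 with 3 or more SUT1 UMIs, 5 were mesophyll, 2 bundle sheath and 1 other, and all 5 of library 2 were other barcodes.

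The heaviest AHA3 barcode of library 1 held 34 of the 640 AHA3 UMIs, or 5.31%, and that of library 2 held 21 of 289, or 7.27%. Both were bundle sheath barcodes that pass the study's filter, with 35329 and 25715 UMIs in all, 429 and 546 SWEET13 UMIs, and 4 and 5 STP3 UMIs. Within the bundle sheath class, 14 barcodes of library 1 and 7 of library 2 carried 50% of the AHA3 UMIs. Without the heaviest barcode the bundle sheath level was 206 CPM in library 1 and 156 CPM in library 2, so no 1 barcode set it.

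For STP3, 5 bundle sheath barcodes of library 1 and 3 of library 2 carried 50% of the class's UMIs, and the level without the heaviest was 18.1 and 25.3 CPM. The heaviest STP3 barcode of library 1, with 6 STP3 UMIs, also held 5 AHA3 UMIs, 629 SWEET13 UMIs and 1 SUT1 UMI among its 20113 UMIs. It had few UMIs of the sheath markers outside the rule (6 of RBCS2, PCK1 and GLN3 together), against 947 in the next barcode.

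SUT1 was the gene most concentrated in single barcodes. A barcode of the other class in library 1 held 23 of its 99 SUT1 UMIs, or 23.2%. It had 45044 UMIs and 6229 detected genes, passed the study's filter, and had 0 UMIs of ME1 and RBCS1 and 4 of PEP1 and CAH1. The remaining other barcodes of library 1 held 2 SUT1 UMIs. In library 2 the 27 SUT1 UMIs of other barcodes were spread over 8 barcodes with 6, 5, 5, 4, 3, 2, 1 and 1 UMIs, and the level without the heaviest was 17.9 CPM. A mesophyll barcode of library 1 held 12 SUT1 UMIs among 4153 UMIs, with 34 UMIs of PEP1 and CAH1 and 0 of ME1 and RBCS1. The mesophyll level of library 1 without it was 0.528 CPM, still above the 0.0497 CPM of library 2.

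**Figure D3:**
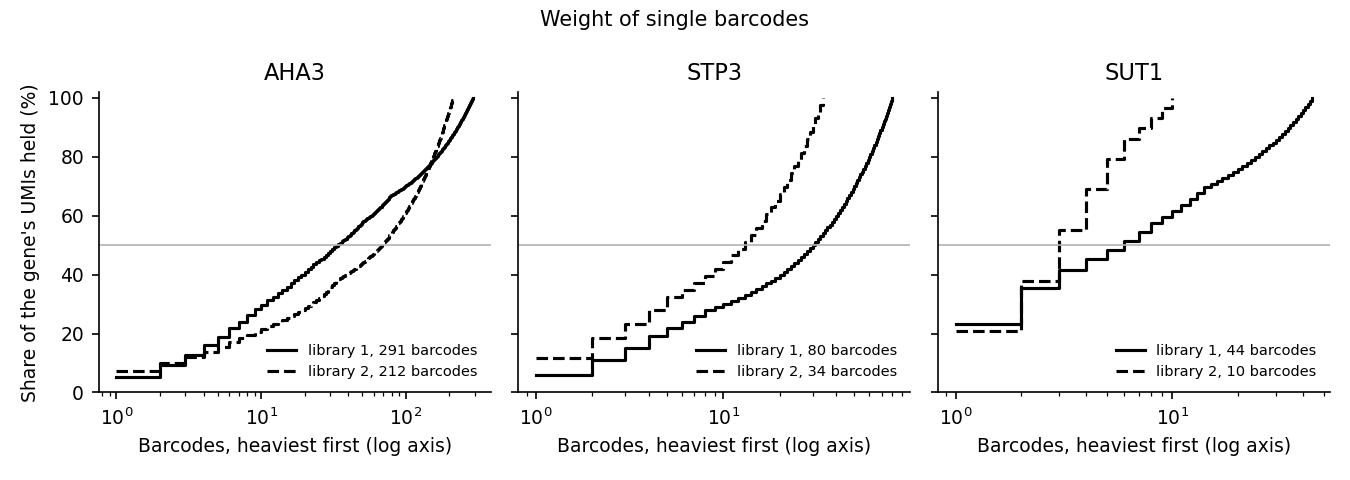
Share of each gene's UMIs (y axis, percent) held by its barcodes, counted from the heaviest (x axis, log scale), with a solid line for library 1, a dashed line for library 2 and a grey line at 50%. SUT1 reaches 50% within 6 barcodes of library 1 and 3 of library 2, STP3 within 30 and 13, and AHA3 within 34 and 68.

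The other barcodes with SUT1 differed between the libraries in depth and in organelle RNA. In library 1 the barcode with 23 SUT1 UMIs had 45044 UMIs and the remaining holders, with 1 SUT1 UMI each, had 590 and 766. The 8 of library 2 had between 1032 and 11411 UMIs. None of the 11 held AHA3 or STP3, genes that few of the 774 and 807 other barcodes held (15 and 11 with AHA3, 2 and 1 with STP3). All 8 of library 2 were at or above the study's mitochondrial limit of 0.75%, with 0.754% to 8.72% of their UMIs from mitochondrial genes, as were 580 of the 807 other barcodes of that library. Their median chloroplast share was 0.289%, against 2.43% over all other barcodes of library 2. In library 1 the 23-UMI barcode was under the mitochondrial limit, at 0.369%, with a chloroplast share of 0.0644%, while the median chloroplast share of the 3 holders was 7.18%, against 6.41% over all other barcodes. No further marker of companion cells was among the lists used, so these barcodes are given no cell type, and what part RNA quality has in their SUT1 level was not tested.

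AHA3 and STP3 were found together in bundle sheath barcodes. In library 1, 20 of the 24 bundle sheath barcodes with STP3 also held AHA3, or 83.3%, against 42.0% of those without STP3. In library 2 it was 9 of 10, or 90%, against 43.9%. The barcodes with both genes were deep, with median totals of 21050.5 and 13145 UMIs, and how much of the overlap depth accounts for was not tested. In mesophyll barcodes both genes met in 4 of 54 STP3 holders of library 1 and in 0 of 23 of library 2.

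The bundle sheath class was then split by SWEET13a, SWEET13b and SWEET13c, because the study describes SWEET13-rich sheath cells as a distinct set. A barcode was called SWEET13-positive with 3 or more SWEET13 UMIs, which held for 77 of 248 barcodes in library 1 and 26 of 76 in library 2. The positive barcodes held 35.0% and 47.6% of all bundle sheath UMIs. They held 73.1% of the bundle sheath AHA3 UMIs in library 1 (323 of 442) and 73.3% in library 2 (74 of 101). Of the STP3 UMIs they held 95.2% (40 of 42) and 77.8% (14 of 18). Of the 17 bundle sheath SUT1 UMIs of library 1, 1 lay in SWEET13-positive barcodes, or 5.88%, and 6 lay in a single SWEET13-negative barcode. By barcode, SUT1 was held by 1 of 77 positive (0.0329% to 7.02%) and 8 of 171 negative barcodes (2.04% to 9.01%). These intervals overlapped.

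AHA3 stood at 458 CPM (409 to 511) in SWEET13-positive and 91.0 CPM (75.3 to 109) in SWEET13-negative barcodes of library 1, and at 288 CPM (226 to 361) and 95.5 CPM (62.9 to 139) in library 2. The gene was thus lower without SWEET13 but not confined to SWEET13-positive barcodes, and its SWEET13-negative level was far above the mesophyll level. In SWEET13-negative barcodes AHA3 was held by 55 of 171 in library 1 and 18 of 50 in library 2, with up to 7 and 4 UMIs. In SWEET13-positive barcodes the holders were 59 of 77, or 76.6% (65.6 to 85.5), and 20 of 26, or 76.9% (56.4 to 91.0). SWEET13-positive barcodes had the higher median depth, of 2617 beside 2114 UMIs in library 1 and of 6760 beside 2666.5 UMIs in library 2.

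STP3 stood at 56.7 CPM (40.5 to 77.2) in SWEET13-positive and 1.53 CPM (0.185 to 5.52) in SWEET13-negative barcodes of library 1, and at 54.4 CPM (29.8 to 91.3) and 14.1 CPM (3.85 to 36.2) in library 2. The negative level of library 1 rests on 2 UMIs, and its interval overlapped that of mesophyll barcodes. In library 2 the negative level rests on 4 UMIs in 3 barcodes and lay above the mesophyll interval.

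The split was tested on sums per library with 1 residual degree of freedom. Of 5076 genes tested, SWEET13 genes left out, 1.1% were higher in SWEET13-positive sums at an adjusted p of 0.05 (56 genes, with 36 or 0.709% lower, median log2 fold change -0.021). AHA3 was higher by 1.99 ± 0.30 (adjusted p 6.76e-09), with ratios of CPM of 5.03 (4.07 to 6.26) in library 1 and 3.01 (1.92 to 4.87) in library 2. STP3 was higher by 3.66 ± 0.58 (adjusted p 6.35e-08), with ratios of 37.1 (9.62 to 317) on 40 against 2 UMIs and 3.85 (1.21 to 16.1) on 14 against 4 UMIs. SUT1 failed the filter on low counts, and its library 1 ratio was 0.116 (0.00276 to 0.746) on 1 against 16 UMIs, 6 of the 16 in 1 barcode. AHA3 and STP3 were picked by the study on its first batch of cells, which is assumed here to be library 1, so that library is no independent evidence of their direction. Both calls were lost without the term for library (adjusted p 0.667 for AHA3 and 0.9997 for STP3). That of STP3 was also lost among barcodes passing the study's filter (3.46, adjusted p 0.0510). DESeq2 called 11 genes in all, 10 of them higher. With it AHA3 kept its call (1.96, adjusted p 0.00168), and STP3 had no adjusted p.

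Among barcodes that pass the study's filter, AHA3 was held by 23 of 23 SWEET13-positive and 21 of 32 SWEET13-negative bundle sheath barcodes of library 1, and by 9 of 12 and 9 of 13 in library 2. Its level was 358 CPM (311 to 411) against 70.6 CPM (54.3 to 90.4) in library 1. In library 2 it was 194 CPM (139 to 265) against 84.0 CPM (48.0 to 136), and the intervals were separated by little. There 1 barcode with 21 UMIs held 52.5% of the AHA3 UMIs of SWEET13-positive barcodes, and the level without it was 106 CPM, inside the interval of SWEET13-negative barcodes.

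**Figure D4:**
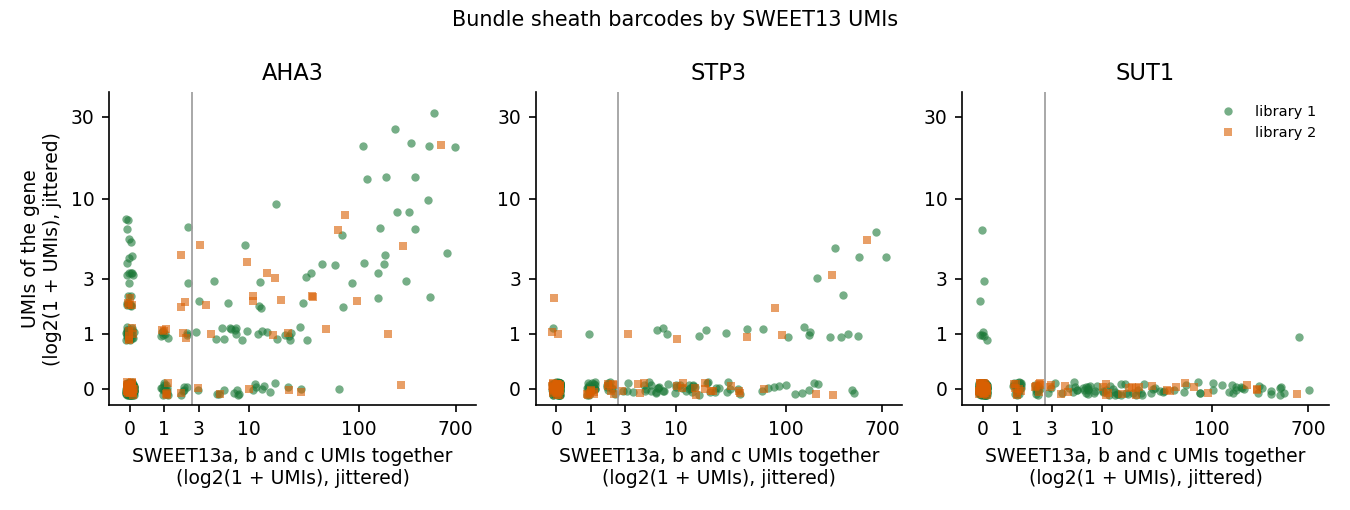
UMIs of AHA3, STP3 and SUT1 (y axis) against the summed UMIs of SWEET13a, SWEET13b and SWEET13c (x axis) in the 248 bundle sheath barcodes of library 1 and the 76 of library 2, both axes log2(1 + UMIs) with a small random shift, and the grey line marking the minimum of 3 SWEET13 UMIs. The barcodes with the most AHA3 UMIs (34 and 21) and the most STP3 UMIs (6 and 5) lie on the SWEET13-positive side, and AHA3 is also found at 0 SWEET13 UMIs. Of the 17 SUT1 UMIs of library 1, 16 lie on the SWEET13-negative side, in 8 barcodes of which 1 holds 6.

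Likeness was measured as Pearson's r of log2(1 + UMIs per 10000) over barcodes with at least 1000 UMIs, ranked by the lower of both libraries, and is a description across barcodes that share a library. Over the 162 and 66 such bundle sheath barcodes, the genes most like AHA3 were SWEET13c (r 0.57 in library 1 and 0.54 in library 2) and SWEET13a (0.49 and 0.43). Those most like STP3 were UmamiT21a, an amino acid transporter gene (0.44 and 0.47), and SWEET13a (0.44 and 0.41). AHA3 and STP3 had r of 0.31 and 0.30 with each other. Over all 5923 and 5537 barcodes, AAP56, an amino acid permease gene (0.47 and 0.39), and SWEET13c (0.55 and 0.38) were the genes most like AHA3, and UmamiT21a (0.31 and 0.28) and AAP56 (0.28 and 0.23) those most like STP3. SUT1 was most like Zm00001d032476 (0.33 and 0.52) and Zm00001d043411 (0.31 and 0.36), over the same 5923 and 5537 barcodes, of which 42 and 10 held SUT1. Neither of its leading genes was a leading gene of AHA3 or STP3.

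Related genes were taken from lists whose names come from the study's gene descriptions of cell clusters, so they were chosen on these samples. Of the 7 other proton pumps, 1 was higher in bundle sheath than in mesophyll sums, a share near the 14.2% of all genes tested, 0 were lower and 6 did not pass, with a median log2 fold change of 0.18 beside -0.077 over all genes tested. The one that rose was H(+)-ATPase 5, by 1.36 ± 0.38 (adjusted p 0.00855), at 192 and 176 CPM in bundle sheath and 55.6 and 108 CPM in mesophyll barcodes of library 1 and 2. Proton-exporting ATPase4 was at 176 and 215 CPM in bundle sheath and 159 and 213 CPM in mesophyll barcodes (0.18 ± 0.36, adjusted p 0.765). The remaining 5 were subunits of the vacuolar proton pump, with log2 fold changes from -0.38 to 0.38.

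Of the 6 other sugar carriers listed, 5 were lower and 1 was higher in bundle sheath sums, where 15.8% of all genes tested were lower and 14.2% higher. Their median log2 fold change was -1.59, but the list was drawn on these samples and is no independent evidence of a direction. Sugar transport protein 13, of the same family as STP3, fell by 1.79 on the log2 scale (SE 0.42, adjusted p 0.00221), from 1105 and 1456 CPM in mesophyll to 294 and 404 CPM in bundle sheath barcodes. Monosaccharide transporter1 was lower as well (-3.19 ± 0.62, adjusted p 0.000371), with 3 and 1 bundle sheath UMIs against 1326 and 545 in mesophyll barcodes, and so was Sugar carrier protein C (-1.14 ± 0.39, adjusted p 0.0303). The exception was Zm00001d028151, a putative polyol transporter, higher by 4.60 ± 0.49 (adjusted p 1.46e-07), while Zm00001d021935, described by the same name, was lower (-3.36 ± 0.45, adjusted p 5.16e-06). In the SWEET13 split, Sugar transport protein 13 was lower in positive sums (-1.25 ± 0.26, adjusted p 0.000282), and none of the 7 proton pumps passed. Few genes passed there in all, with 1.1% of those tested higher and 0.709% lower.

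Of the 5 SWEET exporters, 3 were higher and 1 was lower in bundle sheath than in mesophyll sums, where 14.2% of all genes tested were higher and 15.8% lower. SWEET13a, SWEET13b and SWEET13c were higher in bundle sheath sums by 10.05, 10.28 and 10.19 on the log2 scale. SWEET17b was lower (-2.85 ± 0.51, adjusted p 0.000148), and SWEET16 did not pass. Of the 3 genes of sucrose synthesis, sucrose-phosphate synthase was lower (-4.02 ± 0.44, adjusted p 2.94e-07), beside the same 15.8% of all genes, and the others did not pass. UmamiT21a, AAP45, AAP56 and NRT1 are the study's other transport genes of SWEET13-rich sheath cells. All 4 were higher in bundle sheath sums (7.05 to 10.07), beside 14.2% of all genes tested. They were also higher in SWEET13-positive sums (1.94 to 6.85), beside 1.1% of all genes tested. The study picked them on these data for being higher in SWEET13-rich sheath cells. Their direction in the bundle sheath comparison and in the SWEET13 split is thus no independent evidence.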

How the data were processed

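Protoplasts were profiled with 10x Genomics 3' v3 chemistry in 2 libraries of 1 group. The authors aligned reads with STAR to B73 RefGen_v4 and its Ensembl annotation in Cell Ranger (version 3.1.0 in the file headers) and deposited unnormalized UMI counts per gene and called barcode, unpooled. How reads of near-identical genes were assigned was not checked, so close paralogs are uncertain. Seurat 3.1, named in the submitters' processing notes, was not used here. Depth was 88081896 UMIs over 7340 barcodes (library 1) and 41924567 over 6104 (library 2).

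Barcodes were classed by 4 marker genes. The study's filter (over 1800 and under 7000 genes, under 4% chloroplast and under 0.75% mitochondrial UMIs) kept 4035 and 3339 barcodes and served as an alternative. No doublet caller was run, and barcodes with UMIs of both marker pairs stayed in. UMIs were summed per library and class and tested with edgeR 4.0.16 (R 4.3.3, quasi-likelihood test, TMM scaling, filterByExpr, a term for library, all 3 classes in one fit, threshold 0.05 after Benjamini-Hochberg adjustment). Sums of the same number come from the same pool, so library was a block. The class fit had 2 residual and 20.2 prior degrees of freedom, and the SWEET13 fit 1 residual and infinite prior degrees of freedom. Its p-values therefore rest on a variance shared by all genes. Standard errors were recovered from the fold change and its F statistic. Ratios within a library carry exact conditional intervals, levels exact Poisson and shares exact Clopper-Pearson intervals (95%, SciPy 1.17.1). A 0 was read as allowing 3 counts. DESeq2 1.42.0, other scaling, filters, class rules and single libraries or barcodes left out were the alternatives.

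Named were the 3 members, listed relatives that passed or are closest to a member, and the first 2 genes by likeness. The members and lists were chosen with earlier results of these data known. Of the 44146 maize gene identifiers, 0 were found in the reference table of another assembly, so no sequence or position is given.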

Additional observations from a re-analysis of the deposited data

How the results depend on the processing

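Over the alternatives with a test, the log2 fold changes of bundle sheath against mesophyll kept their direction and side of the threshold: 5.90 to 6.14 for AHA3 and 5.11 to 5.56 for STP3 over 9 alternatives each, and 3.58 to 3.95 for SUT1 (adjusted p 3.84e-07 to 0.0473) over 8. SUT1 against mesophyll in other barcodes ran from 4.92 to 6.84 (adjusted p 1.51e-25 to 0.0308) over 7. Without the replicate block, the genes called fell to 1491 for bundle sheath against mesophyll (3372 with it), 892 for other barcodes (4556) and 1 for the SWEET13 split (92, with 562 and 104 genes at an unadjusted p under 0.05 with and without it), and the lost members were AHA3 in other barcodes (2.01) and AHA3 (1.96) and STP3 (3.45) in the SWEET13 split. With only barcodes that pass the study's filter, the counts were 2024, 2090 and 17, AHA3 in other barcodes was at 0.17, STP3 there was at -6.48 because its 18 barcodes hold 0 STP3 UMIs, STP3 in the SWEET13 split was at 3.46, and SUT1 in other barcodes had no value because it failed the filter on low counts. The SWEET13 split gave 11 calls with DESeq2, which gave STP3 no adjusted p (3.48, unadjusted p 0.00229), and 61 calls with a minimum of 1 SWEET13 UMI. RLE scaling moved the median of all genes in other barcodes from -0.087 to 0.041. The cause of these shifts was not tested. Leaving out a library gave ratios with no test: for bundle sheath 5.22 to 6.59 for AHA3, 4.75 to 5.44 for STP3 and -0.66 to 3.44 for SUT1, for other barcodes 0.73 to 2.77, -0.079 to 1.22 and 4.77 to 6.81, and for the SWEET13 split 1.53 to 2.20 for AHA3 and 1.71 to 3.62 for STP3. Shares of barcodes with a UMI depended on depth. Thinned to 1000 UMIs they were, in library 1 and 2, 20.5% and 18.4% for AHA3 and 2.49% and 2.17% for STP3 in bundle sheath, 0.393% and 0.548% for AHA3, 0.101% and 0.0511% for STP3 and 0.0773% and 0.00355% for SUT1 in mesophyll, 1.16% for SUT1 in bundle sheath of library 1 and 0 for STP3 in other barcodes. Thinned to 3000 UMIs they were 32.6% and 37.6% for AHA3, 4.85% for STP3 and 1.24% for SUT1 (library 1) in bundle sheath, 0.645% and 1.21% for AHA3, 0.173% and 0.182% for STP3 and 0.145% for SUT1 (library 1) in mesophyll, and 0.316% for AHA3 (library 1), 0 for STP3 and 2.41% and 5.11% for SUT1 in other barcodes. Among filtered barcodes they were 80% and 72% for AHA3, 23.6% and 28% for STP3 and 10.9% for SUT1 (library 1) in bundle sheath, 4.02% for AHA3 (library 2) and 1.16% for STP3 (library 1) in mesophyll, and 8.33% for AHA3 and SUT1 in library 1 and 0 otherwise in other barcodes. A minimum of 20 marker UMIs gave AHA3 54.7% in bundle sheath and 3.31% in other barcodes of library 1, and a marker purity of 5 gave 3.80% in the latter. The heaviest barcode held 8.52% of AHA3 UMIs in filtered barcodes of library 1 and 50% of SUT1 UMIs in those of library 2.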

Other observations

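Among the listed relatives, other barcodes differed from mesophyll in their own way. Of the 6 sugar carriers, 3 were higher in other barcodes and 0 were lower, where 21.1% of all genes tested were higher. Monosaccharide transporter1, which was lower in bundle sheath sums, was higher here by 2.01 ± 0.34 (edgeR adjusted p 0.000195), at 78.2 and 60.6 CPM in other and 15.6 and 13.6 CPM in mesophyll barcodes of library 1 and 2. The putative polyol transporter Zm00001d028151 was higher by 1.94 ± 0.51 (adjusted p 0.00537) and Sugar transporter ERD6-like 3 by 1.17 ± 0.40 (adjusted p 0.0239). Of the 7 proton pumps, H(+)-ATPase 5 was higher (1.69 ± 0.38, adjusted p 0.00169), 3 subunits of the vacuolar pump were lower and 3 pumps did not pass. Of all genes tested, 21.1% were higher and 19.4% lower in other barcodes. SWEET13a, SWEET13b and SWEET13c were higher by 5.06, 5.60 and 4.97. The heaviest other barcode held 17 of the 94 SWEET13a UMIs of that class in library 1 and 29 of 44 in library 2. In library 2, a barcode of the other class held 49 SWEET13 UMIs and 3 of the 13 AHA3 UMIs. It had 7 UMIs of ME1 and RBCS1 and 2 of RBCS2, PCK1 and GLN3. Sheath markers outside the class rule were higher in other barcodes as well (RBCS2 by 2.24, PCK1 by 4.50, GLN3 by 1.83). How much of the other barcodes' AHA3 level goes with bundle sheath RNA was not tested.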
